A study of Drosophila melanogaster with 4 samples.

Results

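Broad domains of histone H4 monomethylated at lysine 20 (H4K20me1) were described on 3 autosomal arms of Drosophila melanogaster. The deposited lists of enriched clusters of both ChIP replicates were intersected base by base, and a domain is a stretch of 10000 bp or more that lay without a break in both lists on 2L, 3L or 3R. The members were thus chosen by measured cluster positions and lengths. There were 389 such domains, among 4101 intersected stretches on these arms and 6711 in the whole series. The series holds 2 chromatin immunoprecipitation (ChIP) libraries made with the 3rd lot of an H4K20me1 antibody, and 2 input libraries of chromatin without immunoprecipitation. All 4 came from head nuclei of wild-type Oregon-R flies, and the flies were labelled as mixed adults from population cages. Each input served the calling of the ChIP list that carries its number. A head holds neurons, glia, photoreceptors and other cells, so the lists average over cell types. The labels leave unsaid whether each replicate was a collection of flies of its own, and differences between the lists may be technical.

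H4K20me1 is placed on nucleosomes by the methyltransferase PR-Set7, whose level follows the cell cycle, and another methyltransferase can add further methyl groups to the same lysine. In mammals the mark is known over the bodies of transcribed genes and on the inactive X chromosome, and human L3MBTL1 binds it and compacts chromatin. Most cells of the adult fly head no longer divide. The 6th column of each list is a score from the authors' caller whose scale is not stated, so it is given as a rank or a level within a list and never as a fold. Positions refer to FlyBase release 5 and start at 1. Genes are not named because no annotation of that release was used here. The rule chose the domains by cluster position and length in these same lists, so the values below are descriptions and carry no test.

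The 389 domains summed to 6.75 Mb, which is 8.94% of the 75.5 Mb of the 3 arms and 36.7% of the sequence on them that lay in both lists. They made up 9.49% of the stretches there. The median domain was 14293 bp long, with quartiles of 11541 and 20035 bp. Stretches of 3 to 10 kb on the same arms numbered 1481 with a median of 4838 bp, and 2231 stretches were shorter than 3 kb. Many domains were near the lower limit, and 114 (29.3%) were under 12 kb. The 98 domains of 20 kb or more held 42.5% of the domain length, and 5 reached 50 kb. The arm 3R held 171 domains over 10.7% of its length, 3L held 116 over 8.37%, and 2L held 102 over 7.42%. Per Mb this was 6.13 on 3R, 4.73 on 3L and 4.43 on 2L. The medians of the arms lay close together, at 14697 bp on 3R, 14036.5 bp on 3L and 13824.5 bp on 2L.

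**Figure D1:**
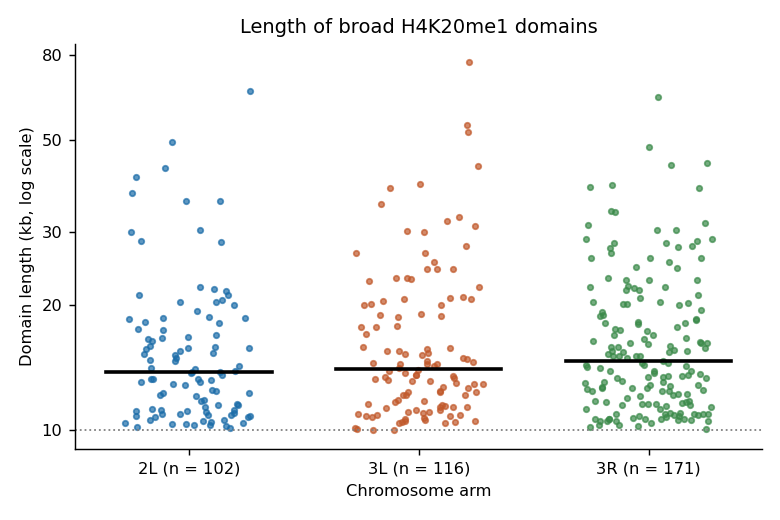
Length of each of the 389 domains in kb (log axis) by chromosome arm, with 1 point per domain, a bar at the arm's median and a dotted line at the limit of 10 kb. Points crowd just above the limit on each arm, and the medians lie between 13824.5 and 14697 bp.

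The limit cut through a continuous range of lengths. The 3 domains just inside it were all on 3L and were 10038, 10048 and 10095 bp long. The 3 stretches just outside it were 9984 bp on 3L and 9968 and 9956 bp on 3R. The scores of the domains just inside were 2.28, 2.00 and 1.73 in replicate 1 and 1.78, 2.23 and 2.13 in replicate 2. Those just outside scored 2.09, 1.58 and 2.01 in replicate 1 and 1.66, 1.18 and 1.72 in replicate 2. In replicate 1 the members at the limit overlapped the stretches beyond it in score. In replicate 2 each of the 3 domains inside scored above each of the 3 stretches outside.

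The longest domains of each arm differed in how well the replicates agreed on their ends. On 2L the longest was 2L:12454914-12520721 (65808 bp), and the replicate 2 cluster began 19 bp and ended 316 bp after that of replicate 1. The next on 2L, 2L:13162583-13212094 (49512 bp), scored 1.77 and 1.69 in the lists of replicates 1 and 2, and its ends differed by 35 and 72 bp. Both were seen with nearly the same outline in each list. Another on 2L, 2L:3077364-3120182 (42819 bp), was different, because the replicate 2 cluster ran on for a further 26096 bp. The others among its 5 longest were 40870 and 37232 bp long.

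On 3L the longest domain was 3L:22324468-22401435 (76968 bp). In replicate 1 it was part of a single cluster from 22295277 to 22401435, and in replicate 2 it began 29191 bp later. The stretch 80 bp to its left, 3L:22301437-22324387 (22951 bp), is a domain of its own in the count above and lay in the same replicate 1 cluster. The others among the 5 longest of 3L were 54343, 52388, 43390 and 39210 bp long, with scores from 1.16 to 1.87 over both lists.

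On 3R the longest was 3R:5751776-5815277 (63502 bp), which scored 2.44 in replicate 1 and 2.06 in replicate 2. Its replicate 2 cluster began 16092 bp before that of replicate 1. The next 3 were 3R:24885200-24933390 (48191 bp), 3R:22624711-22668755 (44045 bp) and 3R:18576453-18620086 (43634 bp). The ends of these 3 differed by at most 1659 bp between replicates. The last of the 5, of 38962 bp, lay in a replicate 2 cluster that ended 18913 bp after that of replicate 1.

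Many domains were cut out of larger clusters that the other replicate had broken up. In 163 of the 389 domains (41.9%), the replicate 1 cluster and the replicate 2 cluster held that domain and no other shared stretch; these are called one-to-one below. In 118 the replicate 1 cluster also held further shared stretches, in 78 the replicate 2 cluster did, and in 28 both did. The remaining 2 were built from clusters that abutted, as 5 domains in all were. For stretches of 3 to 10 kb the share of one-to-one stretches was 45.3%. The breaks were short. Inside the replicate 1 clusters that held domains, replicate 2 left 177 breaks with a median of 255 bp, of which 87.6% were under 1 kb. Inside the replicate 2 clusters, replicate 1 left 131 breaks with a median of 463 bp, of which 77.1% were under 1 kb. The cluster that held a domain was a median of 17141 bp long in the replicate 1 list, and of 16108 bp in that of replicate 2.

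A large cluster in 1 replicate did not always give a domain. Replicate 1 held 492 clusters of 10 kb or more on the 3 arms, of which 370 (75.2%) contributed to a domain and 122 did not. Replicate 2 held 526, of which 372 (70.7%) contributed and 154 did not. Some clusters gave more than 1 domain. In replicate 1, 20 clusters held 2 domains each, and in replicate 2, 15 clusters held 31 domains, up to 3 in a cluster.

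The edges of the domains agreed closely or differed by many kb, depending on how the lists were broken up. Over the 778 edges, the 2 lists differed by a median of 580.5 bp, with quartiles of 176 and 3814 bp. They differed by at most 500 bp at 368 edges (47.3%), by at most 1 kb at 446 (57.3%) and by more than 5 kb at 167 (21.5%). At one-to-one domains the median was 230.5 bp, 73.9% of the 326 edges were within 500 bp and none of them was over 5 kb apart. At the other domains the median was 2752.5 bp and 28.1% of the 452 edges were within 500 bp. Since a domain outside the one-to-one group has by definition a cluster that reaches beyond it, this contrast is partly built in.

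**Figure D2:**
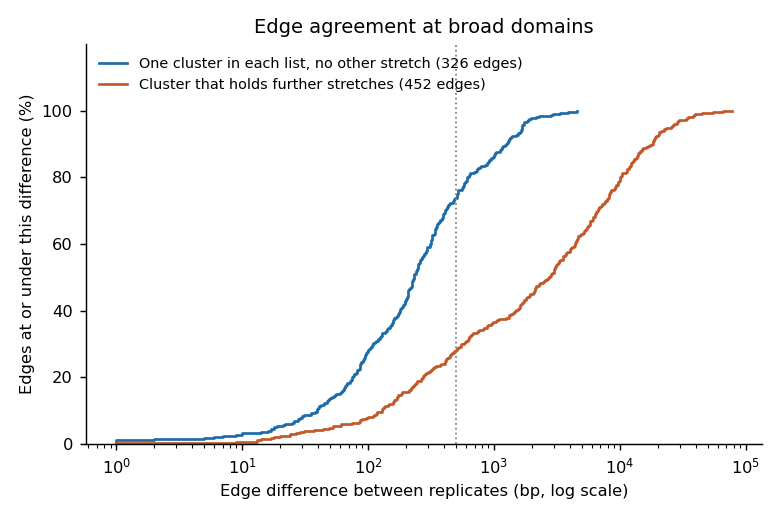
Share of domain edges (%) whose positions in the replicate lists differ by at most the distance on the x axis (bp, log scale), for one-to-one domains (326 edges) and the others (452 edges), with a dotted line at 500 bp. At 500 bp the one-to-one curve stands at 73.9% and the other at 28.1%.

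Domain starts differed by a median of 614 bp and ends by 543 bp. The replicate 1 cluster began first at 228 domains and ended last at 217, and the replicate 2 cluster began first at 161 and ended last at 172. The arms differed in this. On 2L replicate 2 ended last at 61 domains and replicate 1 at 41, while on 3L replicate 2 ended last at 40 and replicate 1 at 76, and on 3R at 71 and 100. At starts replicate 1 was first more often on each arm, at 101 of 171 domains on 3R, 73 of 116 on 3L and 54 of 102 on 2L. The overhang had a median of 596 bp where replicate 1 reached further and 540 bp where replicate 2 did. By arm, the median edge difference was 599 bp on 3R, 607.5 bp on 3L and 483 bp on 2L. For stretches of 3 to 10 kb it was 509.5 bp over all edges and 227.5 bp over those of one-to-one stretches, close to the 580.5 and 230.5 bp of the broad domains. As a share of the median length, the median edge difference was 4.06% in the broad domains and 10.5% in the shorter stretches. The rule set the lengths of both classes, so this contrast is largely built in.

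The domain with the closest edges was 3R:19686296-19717571 (31276 bp), where the replicate 2 cluster began 16 bp and ended 17 bp after that of replicate 1. It was followed by 3R:25835065-25850581 (15517 bp), with differences of 9 and 30 bp, and 3L:9468272-9481233 (12962 bp), with 18 and 31 bp. These 3 reached the same outline in both libraries to within the length of a nucleosome. The least agreement was at 3L:22301437-22324387, where the cluster ends were 77048 bp apart, at 3R:5735684-5749192, where they were 66085 bp apart, and at 3R:21370547-21389359, whose replicate 2 cluster began 25672 bp earlier and ended 33591 bp later than that of replicate 1. In each of these 3, 1 list had a single long cluster where the other had several.

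Of the sequence spanned by the 2 clusters of a domain, the shared part made up a median of 83.1%, with quartiles of 61.0% and 95.1%. It was 90% or more for 156 domains (40.1%) and under 50% for 59 (15.2%). Domains of 30 kb or more had a median of 91.7% (n = 32), against 81.9% for those of 10 to 12 kb (n = 114). The shares of the classes between were 82.1%, 79.8% and 82.7%, so no steady order with length was seen.

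The clusters that held broad domains ranked high in their lists. In replicate 1 their scores ran from 0.666 to 2.89 with a median of 1.50, which corresponds to a median rank at 84.7% of that list. In replicate 2 they ran from 0.764 to 2.65 with a median of 1.53, at a median rank of 88.7%. Stretches of 3 to 10 kb had medians of 1.26 in replicate 1 and 1.25 in replicate 2, at ranks of 74.7% and 76.2%. In both lists at once, 252 domains (64.8%) had a cluster among the upper 25% by score, and 103 (26.5%) among the upper 10%. No domain had both clusters in the lower 50%. The score belongs to the whole cluster, so domains that share a cluster also share its score.

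The replicates ordered the domains alike in part. Across the 389 domains, Spearman's rho between the 2 scores was 0.704 and Pearson's r was 0.692. Within the arms rho was 0.640 on 3R, 0.744 on 3L and 0.770 on 2L. Among the 163 one-to-one domains, where a score covers no other shared stretch, rho was 0.684 and r was 0.712. Domains are not independent samples and share the libraries and the caller, so these are descriptions. The scores differed by a median of 0.194 between lists, and that of replicate 2 was the higher in 218 domains (56.0%). Within the broad domains, length said little about score, with rho of 0.0875 in replicate 1 and 0.130 in replicate 2 (Pearson's r with log10 length 0.0878 and 0.127). For stretches of 3 to 10 kb the same rho was 0.277 and 0.324. The lengths of both sets are cut by the rule, which also limits such a rho.

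**Figure D3:**
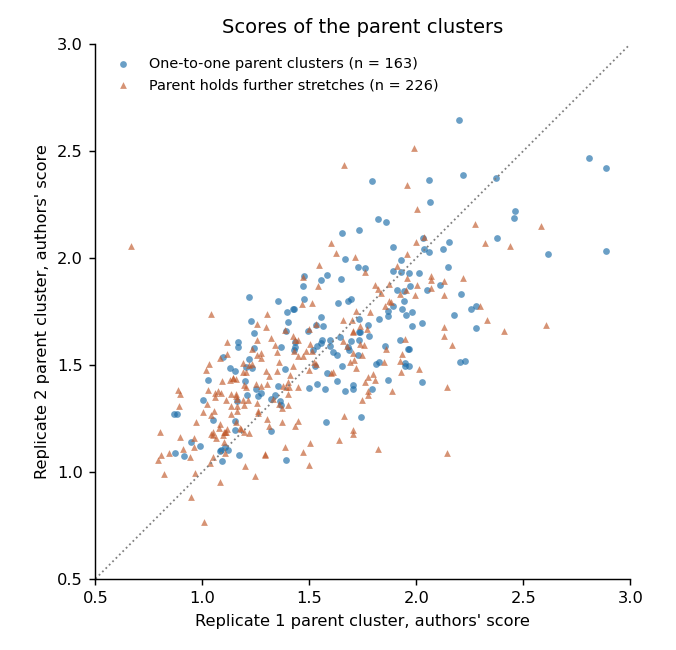
Authors' score of the replicate 2 cluster against that of the replicate 1 cluster for each of the 389 domains, as circles for one-to-one domains (n = 163) and triangles for the others (n = 226), with a dotted line at equal scores. Points scatter around the line with Spearman's rho of 0.704, and the triangle at the far left is 3R:5735684-5749192 with 0.666 in replicate 1 and 2.06 in replicate 2.

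The highest-scoring domain by the lower of its 2 scores was 2L:2979096-2989935, with scores of 2.81 and 2.47 in replicates 1 and 2. Next came 3R:20054367-20074493 (2.89 and 2.42), 3L:16776282-16800699 (2.37 and 2.38), 3R:27597599-27616176 (2.22 and 2.39) and 2L:161685-202554 (2.46 and 2.22). These 5 were 10840 to 40870 bp long, and the last is also the first domain from the tip of 2L. The lowest scores were at 3R:5735684-5749192 (0.666 and 2.06), 3R:5680762-5691783 (1.01 and 0.764), 3R:6090562-6102501 (0.794 and 1.05), 2L:7658978-7674864 (0.802 and 1.19) and 3R:26963436-26976008 (0.805 and 1.08). The first of these shares its replicate 2 cluster with the 63502-bp domain beside it, so 2.06 is the score of both.

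Neighbouring domains were separated by gaps of very different size. Over 386 gaps between neighbours on the same arm, the median was 87.6 kb, with quartiles of 18.5 and 243 kb and a range from 5 bp to 2035 kb. The mean was 168 kb, and the SD of the gaps was 1.33 times their mean. The median gap was 95.9 kb on 3R, 70.8 kb on 3L and 92.4 kb on 2L. Stretches of 3 to 10 kb, which were more numerous, had a median gap of 15.6 kb. The 27 gaps of 500 kb or more held 31.2% of the sequence between domains.

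**Figure D4:**
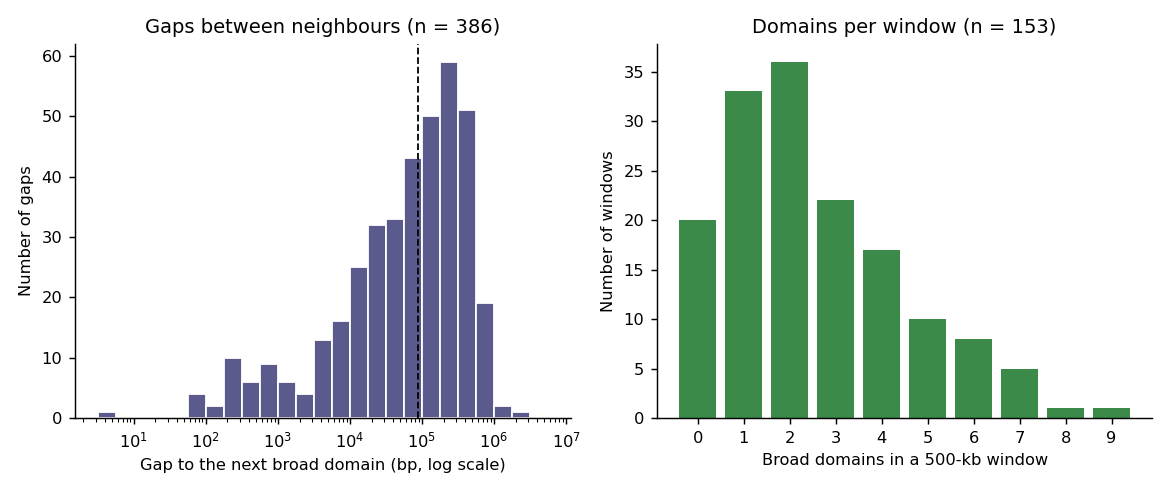
Left, number of gaps by size (bp, log scale) between neighbouring broad domains, with a dashed line at the median of 87.6 kb (386 gaps). Right, number of 500-kb windows by how many broad domains they hold (153 windows), from 20 windows with none to 1 window with 9.

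What lay in a gap changed with its size. Of the 32 gaps under 1 kb, 29 were filled without a break by a cluster of 1 replicate, so these pairs of domains were 1 cluster in 1 list. The 3 closest pairs were of this kind. They were 3L:15548966-15559013 and 3L:15559019-15569468, 5 bp apart, 2L:9176867-9205280 and 2L:9205347-9218926, 66 bp apart, and the pair on 3L described above, 80 bp apart. In the 39 gaps of 1 to 10 kb, 37.8% of the sequence was in neither list. In the 30 gaps of 10 to 20 kb, 52.5% of the sequence lay in both lists as shorter stretches and 26.4% in neither. The 182 gaps of 100 kb or more were the emptiest, with 16.1% in both lists and 75.1% in neither, against 24.4% and 67.4% over the 3 arms as a whole.

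Domains less than 20 kb apart were joined into chains. Of the 389 domains, 175 (45.0%) lay in 74 chains of 2 or more, and 214 stood alone. The chains were 54 pairs, 14 triples and 6 of 4 or more. The share in chains was 51.5% on 3R, 40.5% on 3L and 39.2% on 2L. The chain with most domains was 3R:24633084-24743930, where 5 domains filled 79.2% of 110847 bp. Chains of 4 domains were found at 3R:5680762-5815277 (134516 bp), 3R:4878431-4983768 (105338 bp), 3R:23433783-23531839 (98057 bp), 3R:1098816-1190584 (91769 bp) and 3L:1530709-1602917 (72209 bp). In that last chain domains filled 90.4% of the span, and in the 4 on 3R they filled 74.6% to 84.9%.

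Chained domains were longer than lone ones and agreed less between replicates, while their scores were alike. The median length was 15120 bp for chained domains and 13338.5 bp for lone ones. Median scores were 1.50 for chained and 1.52 for lone domains in replicate 1, and 1.53 for chained and 1.54 for lone domains in replicate 2. One-to-one clusters were found for 32.6% of chained and 49.5% of lone domains, and the shared part of the clusters' span had medians of 67.9% in chained and 87.1% in lone domains. A cluster that reaches into a neighbouring domain lowers this share and places both domains in a chain, so the 2 measures are linked by construction.

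Domains were spread unevenly over windows of 500 kb. The mean was 2.54 ± 1.96 domains (SD over 153 windows), and the variance was 1.52 times the mean. Stretches of 3 to 10 kb had a ratio of 2.23 over the same windows and those under 3 kb one of 3.87, at higher mean counts of 9.68 and 14.6, on which the ratio also depends. The 8 windows between the last domain and the centromere end of 2L and 3L held no domain, and 2 of them were cut short by the arm's end. Without these 8, a setting chosen after seeing the data, the ratio for broad domains was 1.38 over 145 windows. The fullest 38 of the 153 windows held 202 domains (51.9%). The fullest 38 held 40.2% of stretches of 3 to 10 kb and 42.1% of those under 3 kb, each set ranked by its own counts. This share, too, depends on the mean count. The 25 windows with 5 or more domains held 150 of them (38.6%), and 20 windows (13.1%) held none. The fullest window was 3R:19500001-20000000 with 9 domains of 10531 to 38579 bp, which covered 36.3% of it. On 3L the windows from 1500001 to 2000000 and from 16500001 to 17000000 held 7 domains each. On 2L the windows from 1 to 500000, from 6000001 to 6500000 and from 7500001 to 8000000 held 6 each.

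Windows rich in broad domains also held more stretches of 3 to 10 kb, and the contrast was smaller without the ends of the arms near the centromere. Across the 153 windows the 2 counts correlated with a Spearman's rho of 0.420 and a Pearson's r of 0.419. With stretches under 3 kb, rho was 0.163 and r was 0.139. Over the 145 windows left without the centromere ends, rho was 0.325 for stretches of 3 to 10 kb (r 0.331). For those under 3 kb it was 0.0402 (r 0.0285). Windows with 1 or 2 domains held 9.96 ± 4.25 stretches of 3 to 10 kb (SD, 69 windows), and those with 3 or 4 held 10.2 ± 3.95 (39 windows). Windows with 5 or more domains held 12.5 ± 4.06 stretches of 3 to 10 kb (SD, 25 windows), against 4.25 ± 3.77 in windows with no domain (20 windows). For stretches under 3 kb the means were 16.0 ± 6.20 and 10.1 ± 8.26 in the same windows. Of the 20 windows with no domain, the 8 at the centromere ends held 5 stretches of 3 to 10 kb and 21 under 3 kb. Without them, windows with no domain held 6.67 ± 2.77 stretches of 3 to 10 kb and 15.0 ± 6.59 under 3 kb (SD, 12 windows), the second close to the 16.0 of windows with 5 or more domains. Windows of an arm share its libraries and mapping, and are not independent.

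The third of each arm toward the telomere held the most domains per Mb. In the third of 2L nearest the centromere (the high coordinates) there were 2.74 domains per Mb, in the middle of the arm 3.65, and in the third nearest the telomere 6.91. The same parts held 4.03, 4.52 and 5.62 per Mb on 3L, and 5.59, 5.70 and 7.10 on 3R, whose centromere lies at the low coordinates and whose first parts held nearly equal counts of 52 and 53 domains. The share of sequence in domains was 4.00%, 6.84% and 11.4% in these parts of 2L, but lowest in the middle on 3L (7.90%, 7.63% and 9.57%) and 3R (10.1%, 9.58% and 12.5%). The last 1.62 Mb of 2L and 1.67 Mb of 3L before the centromere held no domain, whereas on 3R the first domain began at 113221. At the telomere ends the domain-free sequence was 0.162 Mb on 2L, 0.132 Mb on 3L and 0.241 Mb on 3R. The longest spans between domains were 2L:14234141-16269582 (2.04 Mb), 3L:11546792-12777861 (1.23 Mb) and 3R:2906469-3775658 (0.869 Mb). These spans were not free of the mark, since they held 83, 66 and 42 shorter stretches. The longest of those was 7233 bp on 2L, 9947 bp on 3L and 9660 bp on 3R, and 9.65%, 17.9% and 16.7% of the spans lay in both lists.

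Broad domains lay in sequence that was marked more than the arms at large. Within 10 kb on either side of a domain, 60.0% of the sequence was in either list, 44.7% in both and 40.0% in neither. Over the 3 arms these shares were 32.6%, 24.4% and 67.4%. Around stretches of 3 to 10 kb, 57.0% was in either list, 40.4% in both and 43.0% in neither. In the first kb beyond an edge, 65.8% of the sequence was in either list and 22.7% in both. The last share is low by construction, since a domain ends where 1 list stops. The share in either list is raised near the edge in turn. At each of the 778 edges the cluster of the other list ran on, so part of the contrast with the arms is built in. Between 6 and 7 kb from the edge the shares in either list and in both were 60.3% and 49.3%. Between 19 and 20 kb they were still 51.7% and 42.3%. At that distance they were 47.5% and 36.7% around stretches of 3 to 10 kb. Flanks of chained domains run into their neighbours and into each other, and sequence near several edges counts more than once. With domains taken from the union of the lists, 55.5% of the sequence within 10 kb was in neither, against 67.4% over the arms.

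**Figure D5:**
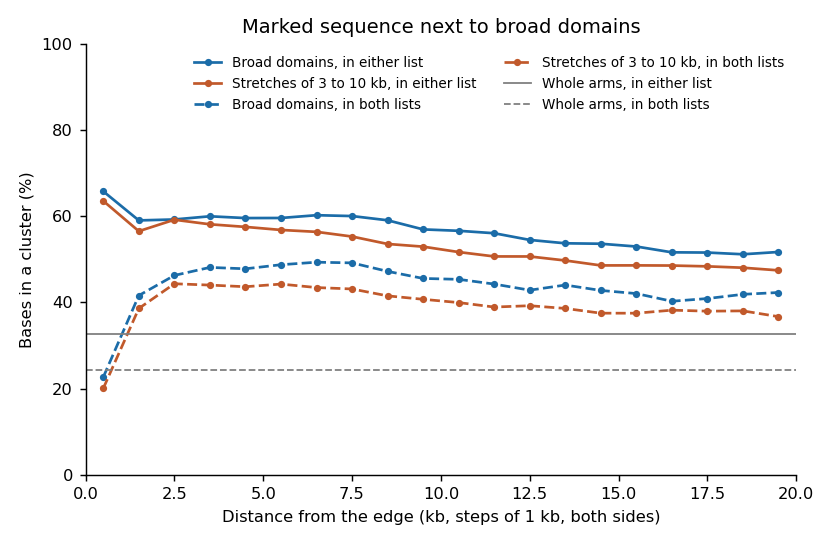
Share of bases (%) in a cluster by distance from the edge (kb, in steps of 1 kb, both sides pooled) for broad domains (n = 389) and stretches of 3 to 10 kb (n = 1481), in either list (solid) and in both (dashed), with grey lines for the whole 3 arms. Between 19 and 20 kb the broad domains stand at 51.7% and 42.3%, above the arms at 32.6% and 24.4%.

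The next cluster was often close. From the end of all sequence joined to a domain in either list, the unmarked gap to the next cluster had a median of 2993 bp over 777 sides, with quartiles of 616 and 11379 bp. It was under 1 kb on 250 sides (32.2%) and 10 kb or more on 208 (26.8%). The median was 2540 bp for stretches of 3 to 10 kb, of whose sides 32.6% were under 1 kb and 26.3% were 10 kb or more. The unmarked gaps on the 2 sides of a broad domain showed no common order of size, with Spearman's rho of -0.00734 over 388 domains (Pearson's r of log10(gap + 1 bp), -0.0232). By arm rho was -0.0283 on 3R, -0.187 on 3L and 0.217 on 2L. Domains joined to the same marked sequence carry the same gaps, so some gaps count more than once in these values.

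Few domains stood in open unmarked sequence. In 29 of 388 (7.47%) both sides had an unmarked gap of 10 kb or more, and the share was 7.23% for stretches of 3 to 10 kb. Domains that share a marked block have the same gaps and were counted separately. The most isolated were 3L:13228764-13255518 and 3L:13255747-13271591, which share 1 marked block with unmarked gaps of 110265 bp on the left and 107459 bp on the right. Next were 2L:17735797-17752180 (115484 and 73745 bp), 3R:21795812-21808052 (74366 and 48885 bp) and 2L:6178640-6193994 (50733 and 46211 bp). Scores of these 5 lay between 1.06 and 1.40 in replicate 1 and between 1.37 and 1.55 in replicate 2. Of all domains, 40 had unmarked gaps under 1 kb on both sides.

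The deposited list of the replicate set joined domains into longer clusters. It is not independent of the replicate lists. Of the 389 domains, 388 (99.7%) lay in it over their whole length, and each touched 1 of its clusters. This was not particular to broad domains. Over their whole length, 1478 of the 1481 stretches of 3 to 10 kb and 2176 of the 2231 under 3 kb also lay in it. The broad domains fell in 344 of its clusters, of which 42 held 87 domains, up to 3 in a cluster. A domain made up a median of 77.0% of its replicate-set cluster, whose median length was 22847 bp over the domains. For 96 domains that cluster was at least 2 times as long as the domain.

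On X, 30 stretches reached the same length, and their outlines differed more between replicates than those of the autosomal domains. The median edge difference was 580.5 bp at the autosomal domains and 1482 bp on X. One-to-one clusters held 41.9% of the autosomal domains and 26.7% of the stretches on X. Among one-to-one stretches alone the median edge difference was 230.5 bp on the autosomes and 287 bp on X (8 stretches). Of their edges, 73.9% on the autosomes and 87.5% on X were within 500 bp. The replicate 1 cluster ended last at 217 of 389 autosomal domains and at 24 of 30 on X, and began first at 228 and 24. The replicate 2 score was the higher in 56.0% of the autosomal domains and in 23.3% of those on X. These differences rest on 1 pair of libraries and 30 stretches, and were not tested.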

How the data were processed

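ChIP-seq of H4K20me1 in adult fly heads was used as deposited. Per the submitters' processing notes, the aligner was Bowtie 0.12.7. Cluster lists in GFF3 on FlyBase release 5, per the file headers, were deposited for each ChIP replicate and for the replicate set, 3 in all, and every deposited cluster has 1 score of the authors. Not given in the sources used here are the score's scale, the caller, its threshold and how repeats and duplicate reads were handled. Clusters of the replicate lists were at least 1301 bp long. Depth is unknown, since no read counts were used, and no interval is given.

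The lists hold 6426 (replicate 1) and 6799 (replicate 2) clusters, which span 33.0 and 33.5 Mb. The lists were intersected by base, abutting stretches were joined, and stretches of 10000 bp or more on 2L, 3L and 3R were kept. A domain takes the score of the cluster that shares most bases with it. Its edge difference is the position in replicate 2 minus that in replicate 1, of the leftmost cluster's start or the rightmost cluster's end. Unmarked gaps were measured between blocks of the union of both lists. Windows of 500 kb counted domains by midpoint, and the last window of an arm was shorter.

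Regions named are the 5 longest of each arm, the 5 highest and 5 lowest by the lower score, the 3 stretches on each side of the limit, the 3 closest and 3 farthest in edges, the fullest chains and windows, the longest domain-free spans, the 5 most isolated domains and the 3 closest pairs. The members and this rule were chosen with earlier results of these data known. Alternatives were other length limits, single lists, the union, the replicate-set list, the upper 50% by score, joining under 1 kb, one-to-one clusters, and other windows, chain distances and flanks. The interval functions were tested on simulated data. Software was scipy 1.17.1, numpy 2.4.6 and matplotlib 3.10.9 under Python 3.11.15.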

Additional observations from a re-analysis of the deposited data

How the results depend on the processing

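The number of domains was 574 with a limit of 8 kb and 98 with a limit of 20 kb. It was 649 in the union and 618 in the replicate-set list, and lay between 491 and 529 with 1 replicate left out. The median length was 11577 bp with a limit of 8 kb, 26044.5 bp with 20 kb, 15540 bp in the union, 15720 bp in the replicate-set list and 15468 bp after joining stretches under 1 kb apart, and 14252 to 15067 bp with 1 replicate left out. In the same settings the median gap between neighbours was 45.9, 459, 45.0, 46.5 and 57.6 kb, and 58.5 to 64.3 kb with 1 replicate left out. The variance over the mean of counts per window was 1.80 with 8 kb, 1.08 with 20 kb, 1.33 in the union, 1.28 in the replicate-set list, 1.31 in windows of 250 kb, 1.66 in windows of 1 Mb and 1.38 with the windows at the centromere ends removed (chosen after seeing the data), and 1.50 to 1.57 with 1 replicate left out. The share of domains in chains was 57.3% with 8 kb, 12.2% with 20 kb, 57.2% in the union and 56.1% in the replicate-set list. It was 49.9% after joining, 33.7% with chaining under 10 kb, 63.0% under 50 kb, and 49.7% to 50.3% with 1 replicate left out. Unmarked sequence within 10 kb was 55.5% in the union, 56.0% in the replicate-set list, 49.2% in the upper 50% by score and 52.1% after joining, and 53.0% to 56.3% with 1 replicate left out. The median edge difference was 791.5 bp with 20 kb, 344.5 bp after joining and 230.5 bp for one-to-one domains, and the score correlation was 0.793 with 20 kb. The settings change both which stretches count as domains and what counts as marked, and the cause of each shift was not tested. Of 66 alternative values, 43 moved by more than the spread set for them and 23 did not; the spread is the SD of the single-replicate values, the SD over arms for edges and scores, the SD over windows for shorter stretches, or a set ratio for the count of domains. The limits are that depth is unknown, that 2 libraries give no replicate spread of their own for a domain, and that short breaks in a list decide many lengths. No paired analysis was possible because no cluster list of an input was used here, although the replicate numbers are shared between ChIP and input.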

Other observations

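Which stretches count as broad depended on short breaks. After joining stretches under 1 kb apart, 547 domains of 10 kb or more were found on the 3 arms, over 14.4% of their length. Of these, 308 held 1 of the 389 domains, 39 held 2 or 3, and 200 held none, being built from shorter stretches. The joined set left 160 of the 389 domains as they were. Domains of 50 kb or more numbered 16 after joining and 5 before. The longest joined domain was 3L:22288963-22401435 (112473 bp), built from 5 stretches of which 2 were broad domains. It was followed by 2L:12454914-12545783 (90870 bp, 6 stretches) and 3R:4896051-4983768 (87718 bp, 5 stretches).

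Scores and lengths of neighbouring domains were at most weakly correlated. Among the 65 neighbours less than 20 kb apart that shared no cluster, Spearman's rho between neighbours was 0.169 for the replicate 1 score, 0.129 for the replicate 2 score and -0.164 for length (Pearson's r 0.151, 0.148 and -0.165). Among the 182 pairs 100 kb or more apart, rho was -0.109, -0.121 and -0.0365 for the same measures (Pearson's r -0.106, -0.130 and -0.0224).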
